A study of Mus musculus with 6 samples.

Results

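Expression of the genes of major histocompatibility complex (MHC) class I antigen presentation was examined in unstimulated bone marrow-derived macrophages (BMDMs). The group was defined by name and comprised 10 genes, namely the heavy chains *H2-K1* and *H2-D1*, the light chain *B2m*, the peptide transporter subunits *Tap1* and *Tap2*, the loading factor *Tapbp*, the immunoproteasome subunits *Psmb8*, *Psmb9* and *Psmb10*, and the transactivator *Nlrc5*. All 10 were found among the 40481 genes of the count table and all 10 passed the filter on low counts, which kept 14778 genes for testing. The RNA came from BMDMs of wild-type mice (3 libraries) and of *Scd2*-m/-m mice (3 libraries), labelled WT and Scd2-KO. Stearoyl-CoA desaturase 2 introduces a double bond into saturated fatty acids, and in the *Scd2*-m/-m mice floxed *Scd2* alleles were recombined by Cre expressed from the lysozyme M locus, which is active in macrophages and other myeloid cells. The cells were differentiated for several days in conditioned medium and received no stimulus. The study used adult mice of both sexes, but the labels name no sex, age or strain for a library, and no label states that the 3 libraries of a genotype came from separate animals, so the p-values measure only the spread between these libraries.

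Class I molecules display peptides from the inside of the cell to CD8 T cells. Proteins are cut by the proteasome, peptides are pumped into the endoplasmic reticulum (ER) by the TAP transporter, and a loading complex built around tapasin fits them onto a heavy chain paired with beta2-microglobulin. Interferons raise the transcripts of nearly every step, partly through NLRC5, a protein that binds class I promoters together with a set of constitutive factors. Macrophages express the pathway without stimulation, as most nucleated cells do.

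The promoters are shown first because elements of the kinds searched below are known from class I promoters. RefSeq promoter sequences (GRCm38.p6) were matched by symbol for 8 of the 10 genes, and none was matched for *Tap2* and *Nlrc5*. In the 250 bases before each start, 6 short motifs were searched on both strands. These were the interferon-stimulated response element core (ISRE, GAAANNGAA), the same element mirrored (GAANNGAAA, added after the sequences had been seen), the interferon-gamma activated site (GAS, TTCNNNGAA), the kappaB site of enhancer A (GGGANNCCC), the Y box (CCAAT) and the core of the cyclic AMP response element (CRE core, TGACG). The Y box and the CRE core lie in the module that NLRC5 and its partners bind. The sequences of *H2-K1* (chr17:34000348-34000597, minus strand) and *B2m* (chr2:122147437-122147686, plus strand) are printed whole, with matches in capitals, and for *H2-K1* the farther upstream of its 2 RefSeq starts was used.
H2-K1: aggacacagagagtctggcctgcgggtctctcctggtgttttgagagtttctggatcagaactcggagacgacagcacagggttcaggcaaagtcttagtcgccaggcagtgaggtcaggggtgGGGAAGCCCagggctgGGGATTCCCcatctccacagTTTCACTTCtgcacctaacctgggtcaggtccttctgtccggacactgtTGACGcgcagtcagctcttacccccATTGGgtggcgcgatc
B2m: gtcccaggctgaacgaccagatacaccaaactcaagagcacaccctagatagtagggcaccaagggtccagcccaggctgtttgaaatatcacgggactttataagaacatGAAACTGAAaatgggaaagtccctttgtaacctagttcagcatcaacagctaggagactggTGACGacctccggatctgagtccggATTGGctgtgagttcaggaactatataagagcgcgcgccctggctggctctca

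In *H2-K1* the capitals mark, in order, the 2 kappaB matches, the mirrored ISRE, the CRE core and a Y box on the reverse strand. In *B2m* they mark an ISRE, the CRE core and a reverse Y box. The *H2-D1* promoter held the same series of matches as *H2-K1* and 1 further Y box. Before the other RefSeq start of *H2-K1* such a Y box was found as well. Across the 30 bases around the kappaB pair the heavy chain promoters were identical at 30 positions (chr17:34000446-34000475, minus strand, and chr17:35262906-35262935, plus strand).
H2-K1 kappaB pair: tgGGGAAGCCCagggctgGGGATTCCCcat
H2-D1 kappaB pair: tgGGGAAGCCCagggctgGGGATTCCCcat

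The CRE core was present in *H2-K1*, *H2-D1*, *B2m* and *Tap1*, and the flanks are aligned below on its 5 bases.
H2-K1 CRE core: tccggacactgtTGACGcgcagtcagctct
H2-D1 CRE core: ccgggacactgaTGACGcgctggcaggtct
B2m CRE core: ctaggagactggTGACGacctccggatctg
Tap1 CRE core: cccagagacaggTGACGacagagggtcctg

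The RefSeq starts used here for *Tap1* and *Psmb9*, which are read away from each other, have 225 bases between them (other annotated transcripts of both genes overlap in this stretch), and the CRE core and the Y box found for *Tap1* were the same bases as those found for *Psmb9*. *Psmb8* held a GAS match, *Tapbp* held 2 Y box matches, and *Psmb10* held no match. The windows searched for *H2-D1*, *Tap1*, *Tapbp*, *Psmb8* and *Psmb9* lay wholly within annotated exons, so other annotated transcripts cover them. Among 32851 promoter windows of the same length, an ISRE was found in 7.13%, a mirrored ISRE in 6.31%, a GAS in 7.02%, a kappaB match in 4.76%, a Y box in 33.8% and a CRE core in 17.8%. A match describes letters only and does not show that a factor was bound.

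The counts assigned to genes summed to between 46285176 and 57629638 per library. Each of these totals exceeds the average number of reads per sample that the paper states, and the reason was not tested. Values are given as CPM, the counts of a gene relative to its library total, scaled by TMM factors of 0.979 to 1.02. *Scd2* itself was measured at 66.9, 77.7 and 62.7 CPM in the wild-type libraries and at 59.5, 37.9 and 39.8 CPM in the *Scd2*-m/-m libraries, so the groups did not overlap, but *Scd2*-m/-m library 1 lay only 3.19 CPM below the lowest wild-type library. The log2FC of *Scd2* was -0.59 ± 0.19 (SE) and did not pass the test (edgeR quasi-likelihood, FDR = 0.1002), whereas without *Scd2*-m/-m library 1 it was -0.83 with an FDR of 8.83e-05, and with limma-voom on all 6 libraries it was -0.62 with an FDR of 0.0105. The counts are per gene, so they would include any reads outside the floxed part, and the share of such reads was not tested. The paper reports a stronger reduction of *Scd2* transcript in its own PCR measurement of these macrophages. Markers of other cells were checked because bulk RNA cannot tell apart fewer cells of a type and less RNA per cell. The summed CPM of 10 macrophage markers was 38017 to 38832 in wild-type and 21807 to 22331 in *Scd2*-m/-m libraries, with 1 marker higher and 5 lower. The highest of them in wild-type was *Lyz2*, the gene that carries the Cre, which fell between the genotypes, at 22742 ± 584 and 9026 ± 357 CPM (SD, n = 3). *Lyz2* made up most of the wild-type macrophage sum and most of the fall of that sum. All 6 markers of dividing cells were higher, with sums of 46.1 to 56.4 against 119 to 122 CPM. Of 10 neutrophil markers 8 were tested and 5 called higher (22.3 to 26.0 against 33.7 to 43.8 CPM, with *Ly6g* at 0 in several libraries). *Mmp8*, the largest part of the wild-type neutrophil sum, lay lower and was not called (log2FC = -0.31, edgeR FDR = 0.146). Called higher were also 3 of 8 dendritic cell markers (9.53 to 16.4 against 15.1 to 19.8 CPM) and 2 of 6 B cell markers, of which 4 were tested (54.1 to 119 against 83.5 to 116 CPM). Over all tested genes 9.65% were called higher and 7.84% lower. *Irf4* made up most of the dendritic cell sum and *Ighm* most of the B cell sum, and neither passed the test (edgeR, FDR = 0.513 and 0.970). No T and NK cell (27.4 to 43.9 against 34.5 to 37.3 CPM), erythroid (1.45 to 2.10 against 1.93 to 2.62 CPM) or stromal marker (1.18 to 2.34 against 1.81 to 2.27 CPM) passed the test, but only 1 of 9, 3 of 6 and 3 of 6 of these had enough counts to be tested, and *Cd4*, which macrophages can express, made up most of the T and NK cell sum. The T cell genes *Cd3d*, *Cd3e* and *Cd3g* were at 0 in several libraries, and *Ncr1* was at 0 in every library. The part of these markers in the results below was not tested.

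Of the 10 class I presentation genes, *Nlrc5*, *B2m* and *Tap1* rose in *Scd2*-m/-m BMDMs, and none fell. This is 3 of 10 at an FDR below 0.05, compared with 9.65% of all tested genes called higher and 7.84% called lower. In 5 of the 10 genes, the 3 called and both heavy chains, every *Scd2*-m/-m library lay above every wild-type library, compared with 17.9% of all tested genes. In none did every *Scd2*-m/-m library lie below (17% of all genes). The fold change was positive for 9 genes and the median log2FC of the 10 was 0.15, beside 0.0039 for all tested genes. The 3 genes were also called without *Scd2*-m/-m library 1, the library with the most *Scd2* of its group. Every change was small, and none reached the absolute log2FC of 2 that the study used to list its top genes. With the edgeR test used here, 98 called genes went beyond this size. The paper lists fewer such genes, and the reason for the difference was not tested.

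**Figure D1:**
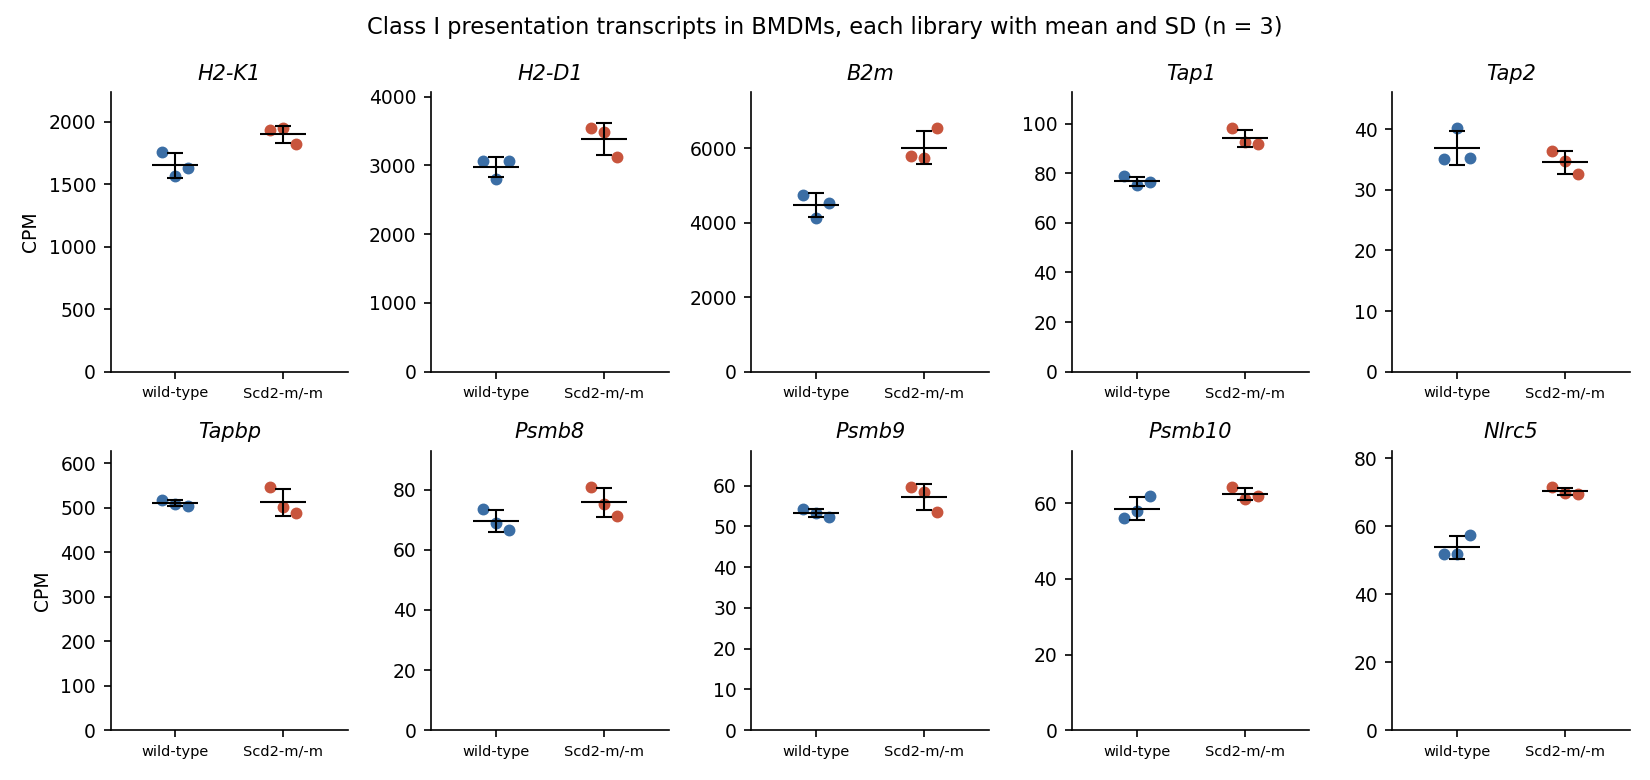
Level of each class I presentation gene in CPM (y axes start at 0, scales differ) in 3 wild-type and 3 *Scd2*-m/-m libraries, with black bars for the mean and SD. The *Scd2*-m/-m points lie above all wild-type points for *H2-K1*, *H2-D1*, *B2m*, *Tap1* and *Nlrc5*, and the groups overlap for the other 5 genes.

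*Nlrc5* encodes the transactivator of class I genes and lies at chr8:94434356-94527272 (GRCm38, plus strand), with 53 merged exons. It was measured at 51.9, 51.8 and 57.5 CPM in wild-type libraries and at 71.5, 69.8 and 69.4 CPM in *Scd2*-m/-m libraries. The lowest *Scd2*-m/-m library was 11.98 CPM above the highest wild-type library, and the *Scd2*-m/-m libraries were closely grouped. The mean rose from 53.7 ± 3.25 to 70.2 ± 1.11 CPM (SD, n = 3), or by 30.8%. Its log2FC was 0.39 ± 0.06 (SE), with the smallest adjusted p of the 10 genes (edgeR, FDR = 7.43e-04). It was called under every alternative setting, including those that left out 1 library, with log2FC between 0.36 and 0.44.

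*B2m* encodes beta2-microglobulin, the light chain that every class I molecule needs to reach the cell surface, and lies at chr2:122147686-122153083 (plus strand), outside the MHC. It was measured at 4747, 4121 and 4545 CPM in wild-type and at 5798, 5731 and 6537 CPM in *Scd2*-m/-m libraries. The gap between the groups was 984 CPM, and *Scd2*-m/-m library 3 was the highest. The mean rose by 34.7%, from 4471 ± 320 to 6022 ± 447 CPM (SD, n = 3), the largest relative change of the 10 genes with all libraries. Without *Scd2*-m/-m library 3 its log2FC was 0.37, below the 0.40 of *Nlrc5*. The log2FC was 0.43 ± 0.08 (SE, FDR = 0.00193) and stayed between 0.37 and 0.47 under all alternatives, each of which called it. *B2m* ranked 13th of 14778 genes by mean CPM.

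The heavy chain genes differed by less. *H2-K1*, at the centromeric end of the MHC (chr17:33996017-34000347, minus strand), was measured at 1756, 1561 and 1631 CPM in wild-type and at 1930, 1945 and 1819 CPM in *Scd2*-m/-m libraries. The groups were 63.4 CPM apart at their nearest points, and the means were 1649 ± 98.5 and 1898 ± 68.8 CPM (SD, n = 3). The log2FC of 0.20 ± 0.07 (SE) narrowly missed the threshold (edgeR, FDR = 0.0557). It passed under 6 of 14 alternatives, among them DESeq2 (FDR = 0.0244), limma-voom (FDR = 0.0430), a test of every gene with a count (FDR = 0.0206), halved counts (FDR = 0.0496) and the fit without wild-type library 1 (FDR = 0.0234). Over all alternatives the FDR ranged from 0.0206 to 0.256.

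*H2-D1*, farther along the MHC toward the nonclassical genes (chr17:35262730-35267499, plus strand), was measured at 3065, 2803 and 3061 CPM in wild-type and at 3537, 3488 and 3117 CPM in *Scd2*-m/-m libraries. *Scd2*-m/-m library 3 exceeded the highest wild-type library by 52.6 CPM, a gap smaller than the SD of either group. The means were 2976 ± 150 and 3381 ± 230 CPM (SD, n = 3), and the log2FC of 0.18 ± 0.07 (SE) did not pass (edgeR, FDR = 0.105). It passed without *Scd2*-m/-m library 3 (log2FC = 0.24, FDR = 0.0481) and when every gene with a count entered the fit (FDR = 0.0448). Over all alternatives the FDR ranged from 0.0448 to 0.357.

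Whether short reads could be assigned to 1 heavy chain was examined in the annotated transcripts. Of all stretches of 100 bases in *H2-K1* transcripts 0.957% also occurred in another gene, and 3.59% in *H2-D1*, mainly in nonclassical class I genes. The longest stretch that the coding sequences of *H2-K1* and *H2-D1* shared was 91 bases long, at bases 738 to 828 of 1110 and 747 to 837 of 1089. It is shown because a read that lies wholly inside it fits both genes equally well. The paper does not state the read length, and a read longer than this run could not lie inside it.
H2-K1 and H2-D1 shared coding run: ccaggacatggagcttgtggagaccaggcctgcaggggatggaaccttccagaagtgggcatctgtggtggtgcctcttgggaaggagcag

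*B2m*, *Tap1*, *Tap2* and *Psmb8* shared no such stretch with another gene. The handling of reads that fit several genes is not stated in the labels or methods, so part of the heavy chain counts may belong to related genes.

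The transporter subunits behaved unequally. TAP1 and TAP2 form the pump as a pair, and their genes lie next to each other with *Psmb8* between them. *Tap1* (chr17:34187553-34197225, plus strand) was measured at 78.8, 75.1 and 76.5 CPM in wild-type and at 98.0, 92.5 and 91.6 CPM in *Scd2*-m/-m libraries. The groups were 12.8 CPM apart. The mean rose by 22.5%, from 76.8 ± 1.86 to 94.1 ± 3.48 CPM (SD, n = 3), and the log2FC was 0.29 ± 0.06 (SE, FDR = 0.00318). All alternatives called it, with log2FC between 0.26 and 0.31.

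*Tap2* (chr17:34203527-34216321, plus strand) was measured at 35.1, 40.1 and 35.3 CPM in wild-type and at 36.4, 34.7 and 32.6 CPM in *Scd2*-m/-m libraries. The groups overlapped, and its log2FC of -0.09 ± 0.07 (SE) was the single negative value among the 10 genes (FDR = 0.432). *Tapbp*, which encodes tapasin, the bridge between TAP and the heavy chain, lies at chr17:33915899-33929292 (plus strand). It was measured at 517, 508 and 504 CPM in wild-type and at 547, 502 and 487 CPM in *Scd2*-m/-m libraries. The *Scd2*-m/-m libraries spanned the wild-type range on both sides, and the log2FC was 0.01 ± 0.06 (SE, FDR = 0.963). No alternative called *Tap2* or *Tapbp*.

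The immunoproteasome genes encode the catalytic subunits that replace those of the constitutive proteasome after interferon exposure and change the peptides that are made. *Psmb8* (chr17:34197721-34201454, plus strand) was measured at 73.7, 68.9 and 66.5 CPM in wild-type and at 80.9, 75.4 and 71.3 CPM in *Scd2*-m/-m libraries. *Psmb9* (chr17:34181987-34187764, minus strand) was measured at 54.3, 53.2 and 52.2 CPM and at 59.7, 58.6 and 53.7 CPM. *Psmb10* (chr8:105935735-105938444, minus strand), the 1 subunit encoded outside the MHC, was measured at 56.0, 57.9 and 61.8 CPM and at 64.3, 61.2 and 61.9 CPM. In all 3 genes the mean was higher in *Scd2*-m/-m libraries and the groups overlapped. The log2FC values were 0.12 ± 0.07, 0.11 ± 0.06 and 0.09 ± 0.06 (SE), and none passed (edgeR, FDR = 0.238, 0.278 and 0.342). None was called under any alternative.

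**Figure D2:**
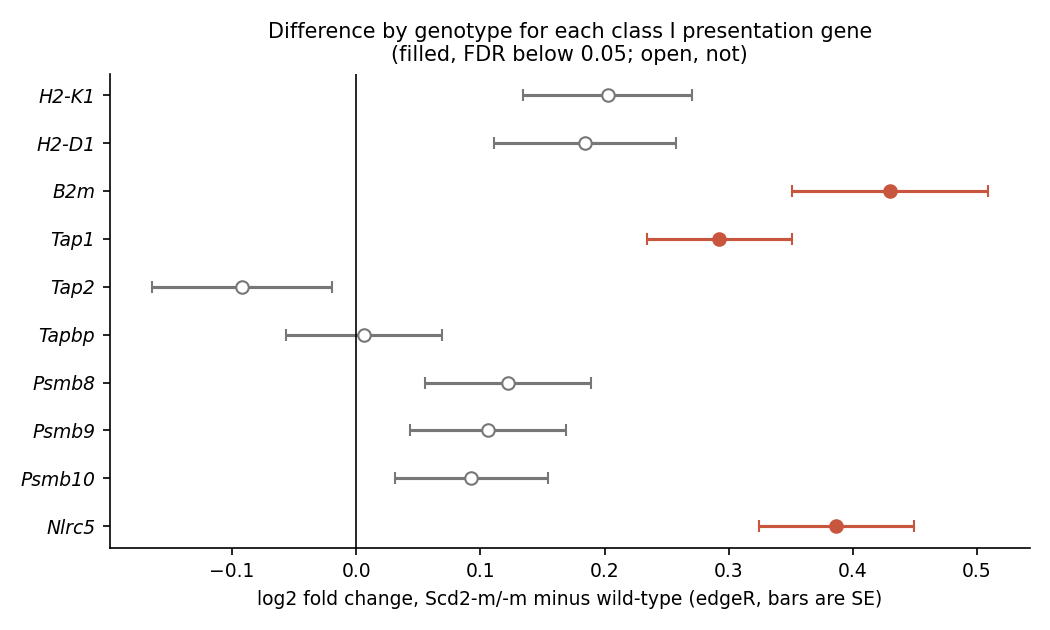
Log2 fold change between genotypes for the 10 genes (x axis, edgeR estimate, bars are SE; filled points have an FDR below 0.05). *Nlrc5*, *B2m* and *Tap1* stand at 0.29 to 0.43, the heavy chains at 0.18 and 0.20, and the other 5 genes between -0.09 and 0.12.

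Individual libraries recurred at the ends of these ranges. Wild-type library 2 was the lowest of all 6 for 5 of the 10 genes, and *Scd2*-m/-m library 1, which held the most *Scd2* of its group, was the highest of all 6 for 7 genes. *Scd2*-m/-m library 3 was the lowest of its group for 8 genes but the highest for *B2m*. Together the 10 genes took 0.931% to 1.02% of the counts of each wild-type library and 1.23% to 1.25% of each *Scd2*-m/-m library, of which *B2m*, *H2-K1* and *H2-D1* made up 0.846% to 0.936% and 1.13% to 1.16%.

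Levels of different genes were compared per kb of exon. In wild-type libraries *B2m* was highest at 5199 ± 372 CPM per kb (SD, n = 3), followed by *H2-D1* at 1154 ± 58.2, *H2-K1* at 561 ± 33.5 and *Tapbp* at 141 ± 1.87 CPM per kb. The ranges of these 4 did not overlap. *Psmb10* followed at 34.4 ± 1.73 and *Psmb8* at 20.6 ± 1.08 CPM per kb. *Psmb9* (14.5 ± 0.278) and *Tap1* (14.0 ± 0.340) were neighbours whose wild-type ranges overlapped, and in *Scd2*-m/-m libraries they stood at 15.7 ± 0.876 and 17.2 ± 0.635 CPM per kb. The order of such close neighbours depends on the exon length taken for each gene. *Tap2* stood at 9.75 ± 0.750 and *Nlrc5* lowest at 6.32 ± 0.383 CPM per kb. Exon length counts every annotated transcript, so genes with retained introns are understated.

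Ratios between partner genes were then taken within each library, which removes library size. The question was whether subunits that work in fixed pairs kept their balance. For each of 6 ratios the difference between genotypes was tested by an exact two-sided permutation test over the 6 libraries, in which the smallest possible p is 0.1, so no ratio could pass a threshold of 0.05. *Tap1* to *Tap2* was 1.55, 1.29 and 1.49 (counts per kb) in wild-type and 1.86, 1.84 and 1.94 in *Scd2*-m/-m libraries, with no overlap. The log2 difference was 0.38 ± 0.08 (SE; exact permutation p = 0.1, adjusted over 6 ratios 0.3).

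Both heavy chains to *B2m* stood at 0.324, 0.338 and 0.3296 in wild-type and at 0.301, 0.302 and 0.240 in *Scd2*-m/-m libraries. All *Scd2*-m/-m values were lower, with a log2 difference of -0.24 ± 0.11 (SE; exact permutation p = 0.1, adjusted 0.3). Without *Scd2*-m/-m library 3 the difference was -0.13. *H2-K1* to *H2-D1* was 0.468 to 0.512 over the 6 libraries, with overlapping groups and a log2 difference of 0.02 ± 0.04 (exact permutation p = 0.7). It turned to -0.01 without wild-type library 3 or without *Scd2*-m/-m library 3.

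The immunoproteasome subunits were set against the constitutive subunits they replace, *Psmb5*, *Psmb6* and *Psmb7*. None of these passed the test of genotype (log2FC of -0.01, 0.14 and 0.15, edgeR FDR = 0.968, 0.284 and 0.109). *Psmb8* to *Psmb5* was 0.442 to 0.473 in wild-type and 0.473 to 0.546 in *Scd2*-m/-m libraries, a log2 difference of 0.13 ± 0.07 (exact permutation p = 0.2, adjusted 0.4). *Psmb9* to *Psmb6* was 0.218 to 0.252 and 0.215 to 0.242, a log2 difference of -0.04 ± 0.08 (exact permutation p = 0.7). *Psmb10* to *Psmb7* was 1.85 to 2.16 and 1.88 to 2.04, a log2 difference of -0.05 ± 0.07 (exact permutation p = 0.6). The groups overlapped in all 3 ratios. Of *Psmb5* transcript stretches of 100 bases, 22.2% also occurred in other annotated genes, so its share of the first ratio is uncertain.

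*Tap1* and *Psmb9* share the promoter region described above, and their ratio was added after it was seen that *Tap1* passed the test and *Psmb9* did not, so it is given as a description with no test. It was 0.970, 0.944 and 0.978 in wild-type and 1.10, 1.06 and 1.14 in *Scd2*-m/-m libraries, again without overlap. The log2 difference was 0.19 ± 0.04 (SE).

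**Figure D3:**
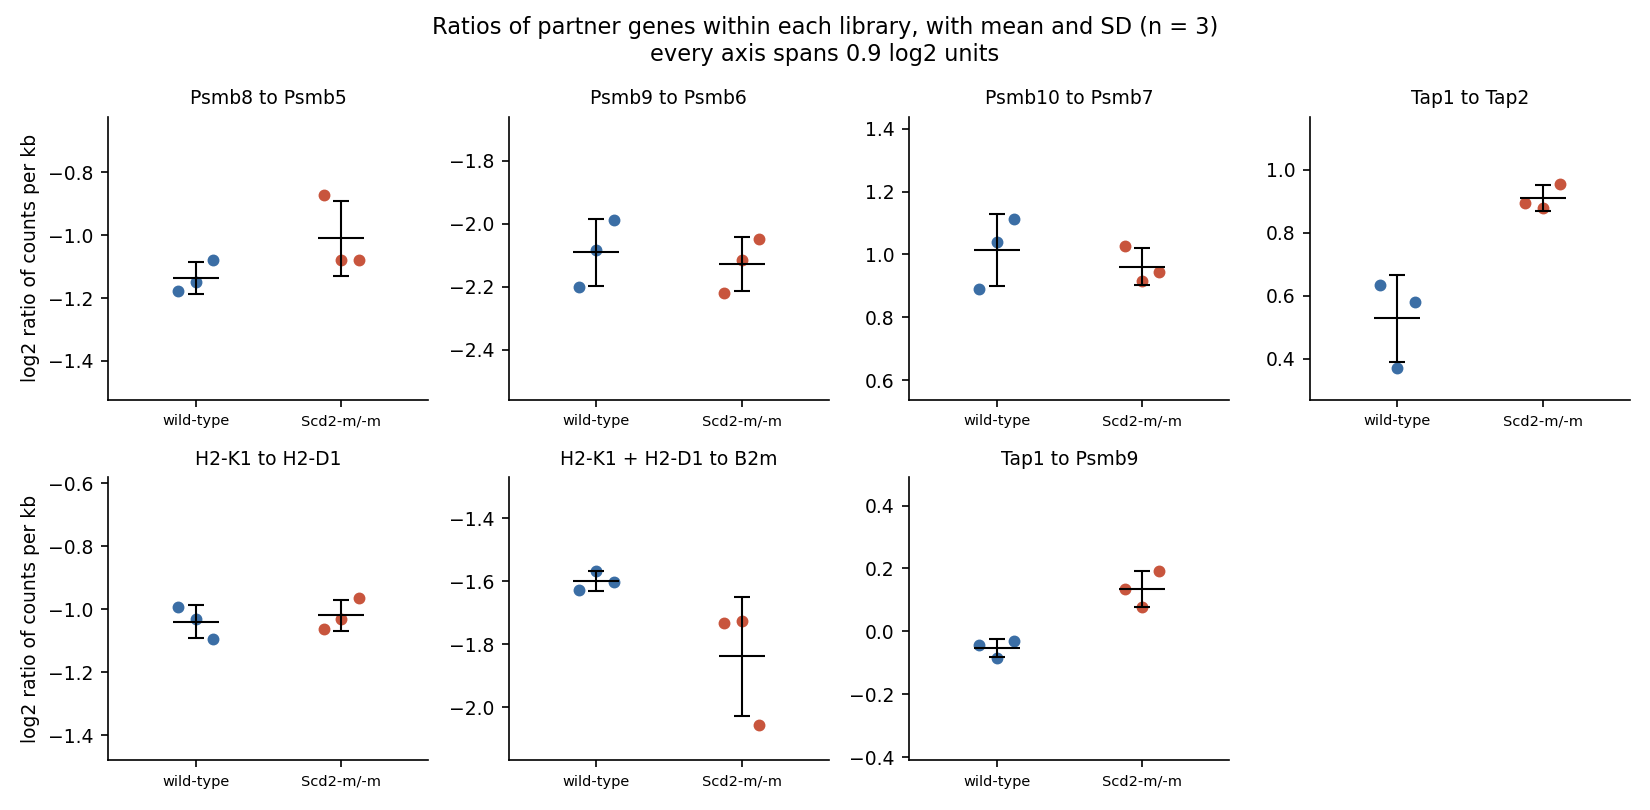
Log2 ratios of partner genes (counts per kb of exon) in each library, with black bars for the mean and SD, wild-type left and *Scd2*-m/-m right, every axis spanning 0.9 log2 units. The groups are apart for *Tap1* to *Tap2*, for both heavy chains to *B2m* and for *Tap1* to *Psmb9*, and overlap for the other 4 ratios.

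The wider pathway was described with 6 gene lists. Over all tested genes 9.65% were called higher and 7.84% lower, 17.5% together. Among nonclassical class I and class I-like genes, 18 of 28 were tested, 8 rose and 1 fell, with a median log2FC of 0.17. The share called was 50% of those tested. *Mr1*, which presents microbial vitamin B metabolites to MAIT cells, rose from 9.08 ± 0.529 to 16.5 ± 0.287 CPM (SD, n = 3; log2FC = 0.86, FDR = 1.24e-05). *H2-T22*, a ligand of some gamma-delta T cells, rose from 66.9 ± 4.28 to 92.3 ± 1.68 CPM (log2FC = 0.46), and *H2-Q4* from 61.2 ± 5.33 to 77.7 ± 3.67 CPM (log2FC = 0.34). *H2-M2* fell from 3.59 ± 0.813 to 1.58 ± 0.108 CPM (log2FC = -1.17). The other genes called higher were *H2-Q6*, *H2-Q7*, *H2-T10*, *H2-K2* and *H2-T23*. Related copies make these uncertain, since 8.86% of the stretches of 100 bases in *H2-T22*, 7.06% in *H2-T10*, 10.8% in *H2-Q6* and 12% in *H2-Q7* also occurred in other genes. Without *Scd2*-m/-m library 2, 5 genes were called higher in place of 8. With 1 library left out in turn, *H2-T23* lost its call in 5 of 6 fits (FDR up to 0.247), *H2-K2* in 3 (up to 0.138), *H2-T10* in 2 (up to 0.0633) and *H2-Q6* in 1 (0.0508, without *Scd2*-m/-m library 3).

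Peptide loading, trimming and ER quality control genes were all tested, and 6 of 26 rose and 1 fell, with a median of 0.10. The share called was 26.9%, compared with 17.5% of all tested genes. *Pdia3*, the ERp57 subunit of the loading complex, rose from 216 ± 2.26 to 286 ± 7.26 CPM (SD, n = 3; log2FC = 0.41, FDR = 1.97e-04). *Calr*, the calreticulin of the same complex, rose from 428 ± 6.03 to 500 ± 26.1 CPM (log2FC = 0.22, FDR = 0.0222), but its FDR was 0.117 without wild-type library 2, 0.0662 without *Scd2*-m/-m library 1 and 0.0786 without *Scd2*-m/-m library 2. *Edem1*, which sends misfolded glycoproteins to degradation, and *Sec61g*, a subunit of the ER translocon, rose by log2FC of 0.37 and 0.57. The tapasin relative *Tapbpl* was level, at 21.8 ± 0.621 and 21.7 ± 1.56 CPM (log2FC = -0.01, FDR = 0.976). Without wild-type library 2 or *Scd2*-m/-m library 2, 3 genes of this list were called higher and none lower, and none was called lower without wild-type library 3 or *Scd2*-m/-m library 1 either.

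Of 24 proteasome core, activator and assembly genes, 1 rose and none fell at this threshold, and the median was 0.03. The share called was 4.17%, below the 17.5% of all tested genes. The gene was *Psmb1*, a core subunit without catalytic activity, with a log2FC of 0.20 (FDR = 0.0304). It was not called without wild-type library 2 or 3 or *Scd2*-m/-m library 2 or 3 (FDR = 0.121, 0.0909, 0.129 and 0.0829).

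Transactivators and interferon signalling genes moved in both directions, with 4 of 29 higher, 8 lower and a median of -0.11. The share called was 41.4%, compared with 17.5% of all tested genes. The receptor chain *Ifngr1*, which binds interferon-gamma, fell from 395 ± 6.83 to 281 ± 20.2 CPM (SD, n = 3; log2FC = -0.49, FDR = 1.45e-04). *Ifngr2*, *Ifnar1* and *Ifnar2*, the other chains of the interferon receptors, also fell, by 0.26, 0.26 and 0.25 on the log2 scale. The NFkB genes *Nfkb1* and *Relb*, whose proteins bind kappaB sites such as those of enhancer A, each fell by 0.38 on the log2 scale. *Nfya*, a subunit of the Y box factor, and *Irf1* were lower as well. *Irf7*, an interferon-induced transcription factor, rose from 229 ± 23.97 to 300 ± 14.6 CPM (log2FC = 0.39, FDR = 0.00267). *Stat2* and *Rfx5*, a partner of NLRC5 on class I promoters, were higher too, although *Rfx5* lost its call in 4 of 6 fits with 1 library left out (FDR up to 0.104). *Ezh2*, kept in this list although it encodes neither a transactivator nor an interferon signalling protein, was also higher (log2FC = 0.62, FDR = 0.00279). Without *Scd2*-m/-m library 2, 5 genes were called lower in place of 8, and *Ifngr2*, *Ifnar1* and *Ifnar2* were not (FDR = 0.0696, 0.0736 and 0.0633). *Ifnar1* was also not called without wild-type library 2 (FDR = 0.0593), nor *Irf1* without wild-type library 3 (FDR = 0.0592).

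Of the interferon-inducible genes 33 of 34 were tested, 10 rose and 1 fell, with a median of 0.26. The share called was 33.3% of those tested, compared with 17.5% of all tested genes. The fold change was positive for 29 and negative for 4 of them. In 15 every *Scd2*-m/-m library lay above every wild-type library (17.9% of all tested genes), and in 1 every one lay below (17%). *Trim25*, *Ifi44*, *Zbp1* and *Oasl1* rose by log2FC of 0.42, 0.90, 0.55 and 0.62, and the gene that fell was the chemokine *Cxcl9* (log2FC = -1.28, from 1.497 to 0.610 CPM). *Isg15* and *Igtp*, among the classical targets of type I and type II interferon, had log2FC of 0.05 and 0.05 (FDR = 0.663 and 0.717). The count of 10 depended on single libraries, with 5 called higher without wild-type library 2, 5 without *Scd2*-m/-m library 3 and 19 without wild-type library 3.

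Of 13 MHC class II presentation genes 12 were tested, 1 rose and 1 fell, with a median of 0.12, beside 9.65% higher and 7.84% lower over all tested genes. The invariant chain *Cd74* fell from 772 ± 88.9 to 564 ± 73.0 CPM (SD, n = 3; log2FC = -0.45, FDR = 0.00960), although not without *Scd2*-m/-m library 1 (FDR = 0.0541) or library 2 (FDR = 0.0518). *H2-Oa*, which modulates class II loading, was called higher at levels under 1 CPM (FDR = 0.0475). The class II transactivator *Ciita*, the relative of *Nlrc5*, stood at 32.4 ± 9.06 and 30.2 ± 3.81 CPM (FDR = 0.820). The counts of class II genes were 0 to 2 higher and 0 to 3 lower when 1 library was left out. Without wild-type library 1 none was higher and 3 were lower. Without wild-type library 2 or *Scd2*-m/-m library 3 none was higher. Without *Scd2*-m/-m library 2 none was called. Without wild-type library 3 there were 2 higher, and without *Scd2*-m/-m library 1 there were 2 higher and none lower.

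**Figure D4:**
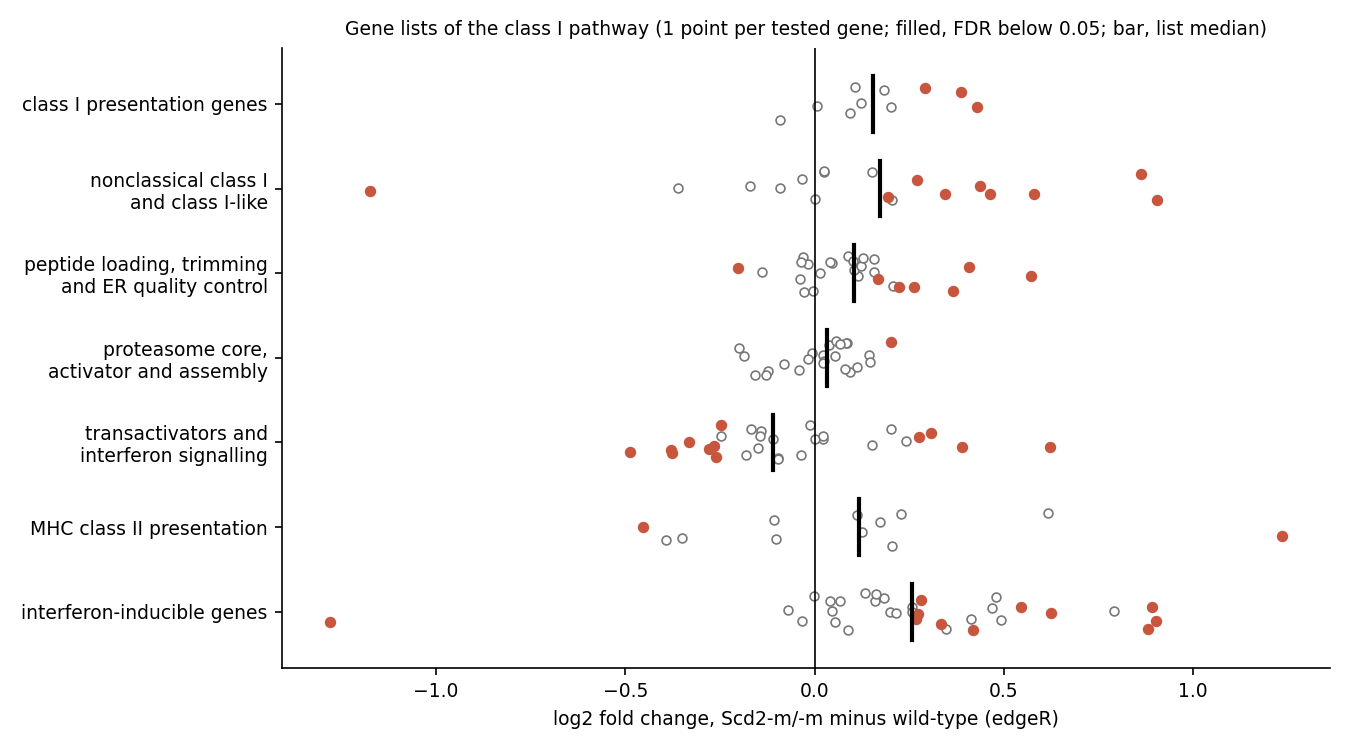
Log2 fold change between genotypes (x axis, edgeR) of every tested gene in 7 lists, 1 point per gene, filled where the FDR was below 0.05, with a vertical bar at the list median. The medians stand at 0.15 for the class I presentation genes, 0.17 for nonclassical class I, 0.10 for loading, 0.03 for proteasome, -0.11 for transactivators and interferon signalling, 0.12 for class II and 0.26 for interferon-inducible genes.

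Position was examined because 7 of the 10 genes lie in the MHC on chromosome 17, within chr17:33915899-35267499 (GRCm38, 1.35 Mb). In that interval 85 genes were tested. Of the 78 that are not among the 10, 4 were called higher and 10 lower, with a median log2FC of -0.06, beside 9.65% higher and 7.84% lower over all tested genes. With 1 library left out these counts were 1 to 4 and 3 to 12, the lowest being without *Scd2*-m/-m library 2. The interval ends at *H2-D1*, and most of the called nonclassical genes lie beyond it and are not counted here. These are *H2-Q4*, *H2-Q6*, *H2-Q7*, *H2-T10*, *H2-T22* and *H2-T23*, which were called higher, and *H2-M2*, which was called lower. *Tap1* was the 1 called gene of the 7, and the genes around it, *Psmb9*, *Psmb8* and *Tap2*, had log2FC of 0.11, 0.12 and -0.09. Of the 3 genes outside this interval, *Nlrc5* and *B2m* rose and *Psmb10* did not pass.

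**Figure D5:**
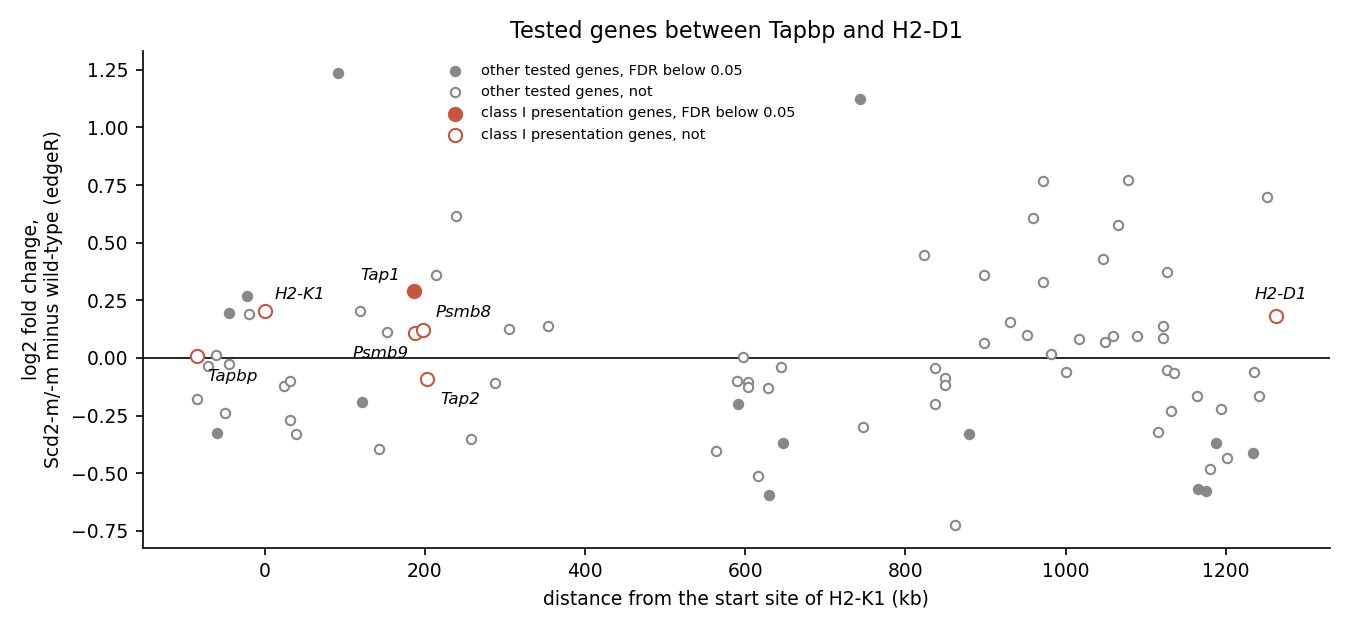
Log2 fold change between genotypes (y axis, edgeR) of the 85 tested genes between *Tapbp* and *H2-D1* against distance from the *H2-K1* start site in kb, with the 7 class I presentation genes in red and an FDR below 0.05 shown filled. *Tap1* is the single filled red point at 0.29, and the other tested genes scatter on both sides of 0.

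The genes whose pattern over the 6 libraries was most like that of the 3 called genes were sought among 8182 tested genes with a mean of at least 10 CPM, by the root mean square difference of centred log2 CPM. Nearest to *Nlrc5* were *Ctsd* (0.0308) and *Psap* (0.0312), which encode a lysosomal protease and the precursor of the saposins. Nearest to *B2m* were *Hsdl2* (0.0367) and *Acadl* (0.0402), and nearest to *Tap1* were *Mdh1* (0.0197) and *Zfand2a* (0.0235). None of these 6 belongs to the lists above.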

How the data were processed

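RNA of 6 BMDM samples, 3 per genotype, was enriched for poly(A) RNA and sequenced. The authors aligned reads with STAR to the Ensembl primary mouse assembly and deposited raw counts per gene. For the counting tool, strand use and handling of reads that fit several genes, none of the sources used here gives an answer. Table columns were matched to samples by the sample number in their labels. The authors' table of their own comparison (fold changes and p-values) was not used.

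Of 40757 rows, 276 repeated a gene and were removed. Counts were tested with edgeR 4.0.16 (filterByExpr, TMM, robust glmQLFit, glmQLFTest) in R 4.3.3, with Benjamini-Hochberg adjustment over 14778 genes and an FDR threshold of 0.05. SE is the log2 fold change divided by the square root of F. The test was also run on simulated counts with known changes, and the outcome is not reported here. The total of 46285176 to 57629638 counts per library gave each of the 10 genes at least 1743 counts per library. Library pairs of a group differed by more than sampling noise. Among counts from 1 to 20, 60.9% to 64.9% were even, so halved counts were tried.

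Alternatives were RLE and upper-quartile factors, DESeq2 1.42.0, limma-voom (limma 3.58.1), other filters (every gene with a count, or at least 10 counts in every library), a replicate block, halved counts and leaving out each library. Coordinates and exon lengths came from the GENCODE annotation of GRCm38, matched for 99.7% of genes. Named were the 10 genes, *Scd2*, the constitutive proteasome subunits, up to 4 called genes of smallest p per list, and the 2 most similar genes for each of the 3 called genes. *Lyz2*, *Mmp8*, the further called genes of the lists, and *Tapbpl*, *Isg15*, *Igtp* and *Ciita* were named after their values were seen. The genes and lists were chosen with earlier results of these data known. The values of some list genes are not reported here.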

Additional observations from a re-analysis of the deposited data

How the results depend on the processing

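The calls of *Nlrc5*, *B2m* and *Tap1* held under all 14 alternatives run. The count of called class I presentation genes was 3 or 4 under all of them except the one that kept all genes with any count, where 5 were called, all higher. In that setting 16 interferon-inducible genes were called higher and 2 class II genes. No class II gene was called higher with DESeq2, with limma-voom or with at least 10 counts in every library. With the replicate number as a block, 4 class I presentation genes were called, the fourth being *H2-K1*, and 2 nonclassical class I genes and 2 class II genes were lower and 19 interferon-inducible genes higher. No label states that same-numbered libraries were paired. The deviations of same-numbered libraries correlated at 0.24, -0.12 and 0.23, and those of differently numbered libraries at -0.27 to 0.10. Whether the libraries were paired cannot be told from these values.

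With 1 library left out, the class I presentation genes called ranged from 3 to 4. Called higher were 5 to 7 nonclassical class I, 3 to 7 loading, 0 to 1 proteasome, 3 to 4 transactivator and signalling, 0 to 2 class II and 5 to 19 interferon-inducible genes. Called lower were 0 to 1 loading, 5 to 9 transactivator and signalling and 0 to 3 class II genes. All lists together gave 25 to 46 called genes, compared with 42 in all libraries. The log2 difference of *Psmb9* to *Psmb6* ranged from -0.092 to 0.014 and that of *H2-K1* to *H2-D1* from -0.0072 to 0.045, both turning sign. The log2FC of *Tapbp* ranged from -0.044 to 0.041 with 1 library left out. That of *Psmb5* turned to 0.0027 with upper-quartile factors and ranged from -0.067 to 0.058 with 1 library left out. The cause was not tested. Other factors moved the median log2FC of all genes to between -0.0016 and 0.0127. Another gene length cancels in the difference of a ratio of single genes, so the longest-transcript alternative does not bear on those. Of all tested genes, 869 were called higher and 621 lower without wild-type library 2, and 869 and 571 without *Scd2*-m/-m library 2, compared with 1426 and 1159. Genes under 1 CPM, such as *H2-Oa*, rest on few counts.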
